A study of Mus musculus with 2 samples.

Results

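The genes described here are 10 chemokines made by endothelial cells: Ccl2, Ccl5, Ccl7, Cxcl1, Cxcl2, Cxcl5, Cxcl10, Cxcl12, Cxcl16 and Cx3cl1. They were chosen by symbol, and every probe set that the platform annotation gives to exactly 1 of them was used. This gave 18 probe sets of 45101 on the array, and 10 genes of 18193 with a single-gene probe set. No probe set with several symbols named a member. RNA came from primary endothelial cells, cultured from C57/BL6 Snail1f/f mouse embryos at E10.5, and was hybridised to Affymetrix arrays. In these embryos both copies of Snail1, which encodes a repressor of transcription, can be deleted by the Cre recombinase. The WT group (1 array) received an adenovirus carrying β-galactosidase and the Snail1 KO group (1 array) an adenovirus carrying Cre, and both recovered for some days before RNA was taken. Thus the floxed alleles and an adenoviral infection are common to both groups. The sources used here do not say how many embryos were pooled.

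Chemokines are small secreted proteins that bind receptors on leukocytes and other cells and set the direction in which these cells move. They are classed by the spacing of their first cysteines as CC, CXC or CX3C chemokines, and CXC chemokines with a Glu-Leu-Arg (ELR) motif before the cysteines attract mainly neutrophils. Endothelial cells hold chemokines on surface heparan sulphate, where rolling leukocytes meet them, and make many of them in response to interferons or to NF-kB.

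All 10 chemokines had a lower value in Snail1 KO than in WT cells in their brightest probe set, and 6 of them, Cxcl10, Ccl5, Cxcl12, Ccl7, Ccl2 and Cxcl1, were at least 2-fold lower. Cxcl2, Cx3cl1, Cxcl16 and Cxcl5 were within 2-fold. The median log2 difference over the 10, Snail1 KO minus WT, was -1.65, beside -0.03 over all genes on the array. Of all 18193 genes, 1.34% were at least 2-fold lower, 0.698% at least 2-fold higher and 53.7% lower by any amount. The members were proposed from this same contrast, so these counts describe them and test nothing. With 1 array in each group there is no estimate of the spread between cultures. No difference was tested, and loss of Snail1, the Cre protein and the virus that carried it cannot be told apart.

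Of the 18 probe sets, 18 were lower on the Snail1 KO array and 8 were at least 2-fold lower, beside 50.1% and 1.05% of all 34945 single-gene probe sets. A filter kept genes whose mean over both arrays lay above the 40th percentile of probe sets, a log2 value of 3.97. Of the 10 members, 8 passed it and Cxcl2 and Cxcl5 did not. The filter marks dim values and does not show detection.

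**Figure D1:**
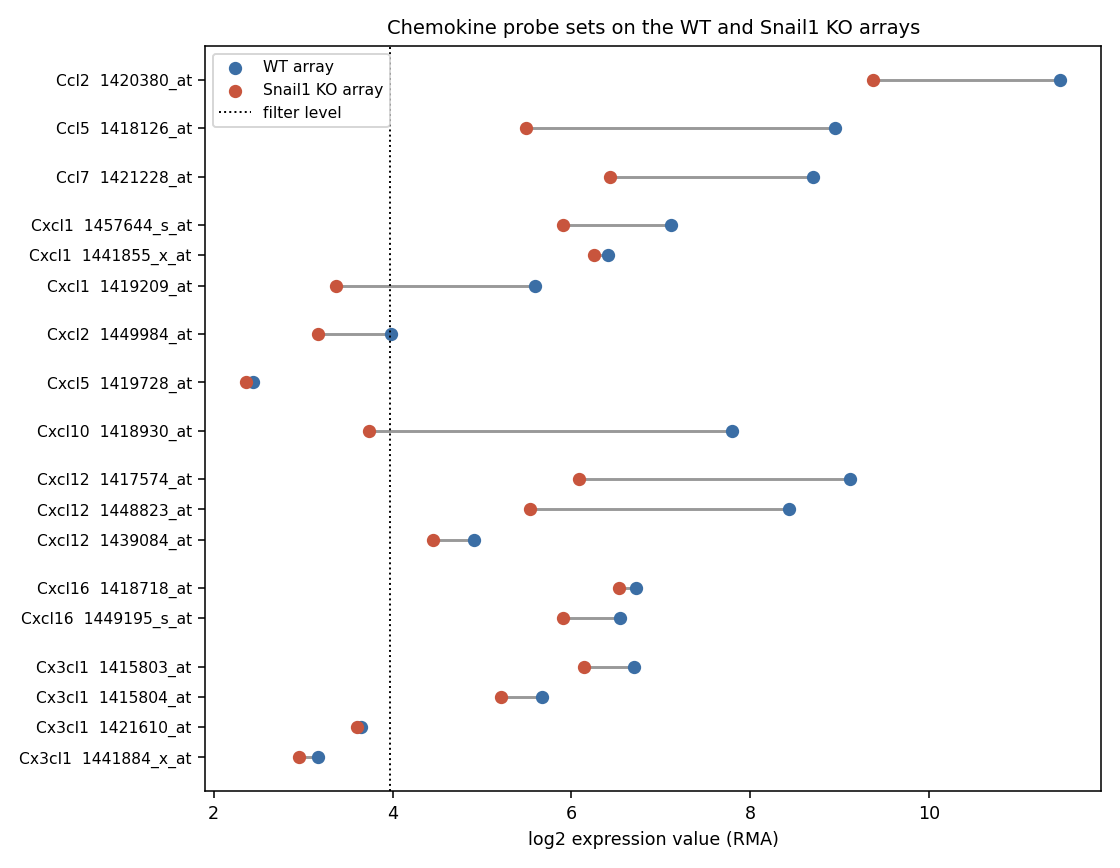
Log2 expression value of each of the 18 chemokine probe sets on the WT array (blue) and the Snail1 KO array (red), 1 point per array, with the filter level of 3.97 as a dotted line. Each red point lies left of its blue point, and the gap for Cxcl10 runs from 7.79 to 3.74.

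Promoters are shown for the 5 members that the RefSeq table used here lists, so that genes far lower on the Snail1 KO array (Cxcl10, Cxcl12), a gene within 2-fold (Cx3cl1) and a neighbouring pair (Cxcl1, Cxcl2) can be read side by side. Each runs from 250 bases before to 50 bases after the start of transcription, 5′ to 3′ on the gene's own strand, in build GRCm38.p6. Capitals mark matches to 4 motifs searched on both strands: GAAANNGAA (the core of the interferon-stimulated response element), GGANNTTCC (a core bound by NF-kB), TATAAA (the TATA box) and CAGGTG (an E-box of the kind Snail proteins bind). The promoters lie at chr5:92348840-92349139 on the minus strand for Cxcl10, chr5:90890995-90891294 on the plus strand for Cxcl1, chr5:90903649-90903948 on the plus strand for Cxcl2, chr6:117168285-117168584 on the plus strand for Cxcl12 and chr8:94771930-94772229 on the plus strand for Cx3cl1.
Cxcl10: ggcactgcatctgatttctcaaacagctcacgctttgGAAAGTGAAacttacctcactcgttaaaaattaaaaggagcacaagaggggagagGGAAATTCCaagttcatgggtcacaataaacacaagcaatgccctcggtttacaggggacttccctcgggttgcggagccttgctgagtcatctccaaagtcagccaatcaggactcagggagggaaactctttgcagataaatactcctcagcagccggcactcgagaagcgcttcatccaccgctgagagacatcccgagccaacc
Cxcl1: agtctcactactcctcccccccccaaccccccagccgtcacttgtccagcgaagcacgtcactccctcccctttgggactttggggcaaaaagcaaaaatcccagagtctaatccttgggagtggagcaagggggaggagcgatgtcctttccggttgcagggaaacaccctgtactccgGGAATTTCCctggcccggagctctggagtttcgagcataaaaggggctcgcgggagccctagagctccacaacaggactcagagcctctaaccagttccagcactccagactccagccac
Cxcl2: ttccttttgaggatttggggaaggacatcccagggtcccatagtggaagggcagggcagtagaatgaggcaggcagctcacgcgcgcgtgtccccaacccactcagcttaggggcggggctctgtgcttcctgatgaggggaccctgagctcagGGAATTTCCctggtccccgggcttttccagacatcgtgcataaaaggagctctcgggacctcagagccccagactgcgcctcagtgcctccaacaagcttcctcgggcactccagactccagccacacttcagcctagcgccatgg
Cxcl12: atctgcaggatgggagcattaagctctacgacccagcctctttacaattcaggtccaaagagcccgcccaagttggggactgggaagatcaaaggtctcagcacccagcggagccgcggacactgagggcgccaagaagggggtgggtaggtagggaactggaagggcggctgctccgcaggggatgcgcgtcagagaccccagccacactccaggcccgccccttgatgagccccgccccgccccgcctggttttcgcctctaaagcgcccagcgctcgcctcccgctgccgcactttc
Cx3cl1: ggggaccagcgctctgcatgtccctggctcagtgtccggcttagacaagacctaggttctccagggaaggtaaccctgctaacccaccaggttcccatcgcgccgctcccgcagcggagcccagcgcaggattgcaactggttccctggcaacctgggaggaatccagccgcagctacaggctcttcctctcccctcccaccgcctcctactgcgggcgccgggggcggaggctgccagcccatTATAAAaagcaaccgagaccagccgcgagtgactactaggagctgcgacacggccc

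The NF-kB core was found in Cxcl10, Cxcl1 and Cxcl2, against 4.26% of all 32851 promoters in the table. In Cxcl1 and Cxcl2 the matched bases were the same, GGAATTTCC, and began 70 and 96 bases before the start site. In Cxcl10 they were GGAAATTCC, beginning 158 bases before it. At these 3 places the same bases match on both strands, and no match of 1 motif overlapped that of another. The interferon core was found in Cxcl10, as GAAAGTGAA from 213 bases before the start, and in 8.56% of all promoters. Cx3cl1 held a match to the letters TATAAA ending at the base before the start site, and 13.6% of all promoters held such a match. Whether it works as a TATA box at that place was not tested. No match to CAGGTG was found in these 5 windows, against 20.2% of all promoters, and Cxcl12 matched none of the 4 motifs. Cxcl1 and Cxcl2 also share an identical stretch of at least 20 bases, GCACTCCAGACTCCAGCCAC. It begins 30 bases after the start site in Cxcl1 and 10 bases after it in Cxcl2. In Cxcl1 it reaches the last base of the window, so its full length was not seen. A match is a description of the letters, and binding was not measured.

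The 3 CC chemokines among the members were each past 2-fold lower in their single probe set, beside 1.34% of all genes. The class as a whole did not share this. Other CC ligands past the filter ran from -0.76 for Ccl17 to 0.40 for Ccl25 in their brightest probe sets. Ccl5 (RANTES), which draws T cells and monocytes, had a log2 value of 8.95 on the WT array and 5.49 on the Snail1 KO array. This is a log2 difference of -3.47. Ccl7, a monocyte chemokine, was at 8.70 and 6.43, a difference of -2.27 and 4.82-fold lower. Ccl2, the main ligand that calls monocytes out of the marrow through Ccr2, was at 11.47 and 9.38, a difference of -2.09 and 4.27-fold lower. On the Snail1 KO array Ccl2 still lay at the 90.6th percentile of probe sets, against the 98.2nd on the WT array. All 3 genes stayed above the filter level on both arrays. With 16 added to the linear values before taking logs, the differences were -3.07 for Ccl5, -2.08 for Ccl7 and -2.07 for Ccl2.

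The CXC chemokines without ELR included Cxcl10 and Cxcl12, both past 2-fold lower, and Cxcl16, which was within 2-fold. Cxcl10 (IP-10), an interferon-induced ligand for Cxcr3 on activated T cells, was at 7.79 on the WT array and 3.74 on the Snail1 KO array. The difference was -4.06, or 16.6-fold lower. Its Snail1 KO value lay below the filter level, and with 16 added to the linear values before taking logs the difference was -3.02, beside -3.07 for Ccl5. The promoter of Cxcl10 is the one of the 5 above that holds both the interferon core and the NF-kB core.

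Cxcl12 (SDF-1) acts through Cxcr4 and guides blood progenitors and growing vessels. Its brightest probe set, 1417574_at, was at 9.11 on the WT array and 6.08 on the Snail1 KO array, a difference of -3.03 and 8.19-fold lower. A further probe set, 1448823_at, was at 8.43 and 5.53, a difference of -2.90. The third, 1439084_at, was at 4.91 and 4.45, a difference of -0.46, so this probe set stayed within 2-fold while the others did not. The mean of all 3 gave -2.13. Cxcl16, a membrane-anchored chemokine and scavenger receptor, was at 6.72 and 6.54 in probe set 1418718_at, a difference of -0.19. In 1449195_s_at it was at 6.55 and 5.91, a difference of -0.64, so both its probe sets were lower on the Snail1 KO array by less than 2-fold.

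The ELR chemokines, ligands of Cxcr2 on neutrophils, had 1 member of 3 past 2-fold. Cxcl1 (KC) had 3 probe sets that differed in size. The brightest, 1457644_s_at, was at 7.12 on the WT array and 5.91 on the Snail1 KO array, a difference of -1.21 and 2.31-fold lower. Probe set 1441855_x_at was at 6.41 and 6.25, a difference of -0.16. Probe set 1419209_at, the 1 of the 3 whose name carries no mark for probes that can bind several transcripts, was at 5.59 and 3.36, a difference of -2.23. Its Snail1 KO value lay below the filter level. The difference of -2.23 stands for Cxcl1 when marked probe sets are left out. Cxcl2 (MIP-2) was at 3.98 and 3.17, a difference of -0.82, with the WT value just above the filter level and the mean below it. With 16 added to the linear values it was -0.35. Cxcl5 (LIX) was at 2.44 and 2.36, dim in both groups, and its difference of -0.08 was 0.01 after removal of the trend of differences with level.

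Cx3cl1 (fractalkine) stands on a membrane stalk and both tethers and attracts cells that carry Cx3cr1. Its 4 probe sets had log2 differences between -0.56 and -0.04. The brightest, 1415803_at, was at 6.70 on the WT array and 6.14 on the Snail1 KO array, a difference of -0.56. Probe set 1415804_at was at 5.67 and 5.21, a difference of -0.45. The other 2 were dim in both groups, at 3.65 and 3.60 for 1421610_at and at 3.16 and 2.96 for 1441884_x_at. No probe set of Cx3cl1 reached 2-fold.

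**Figure D2:**
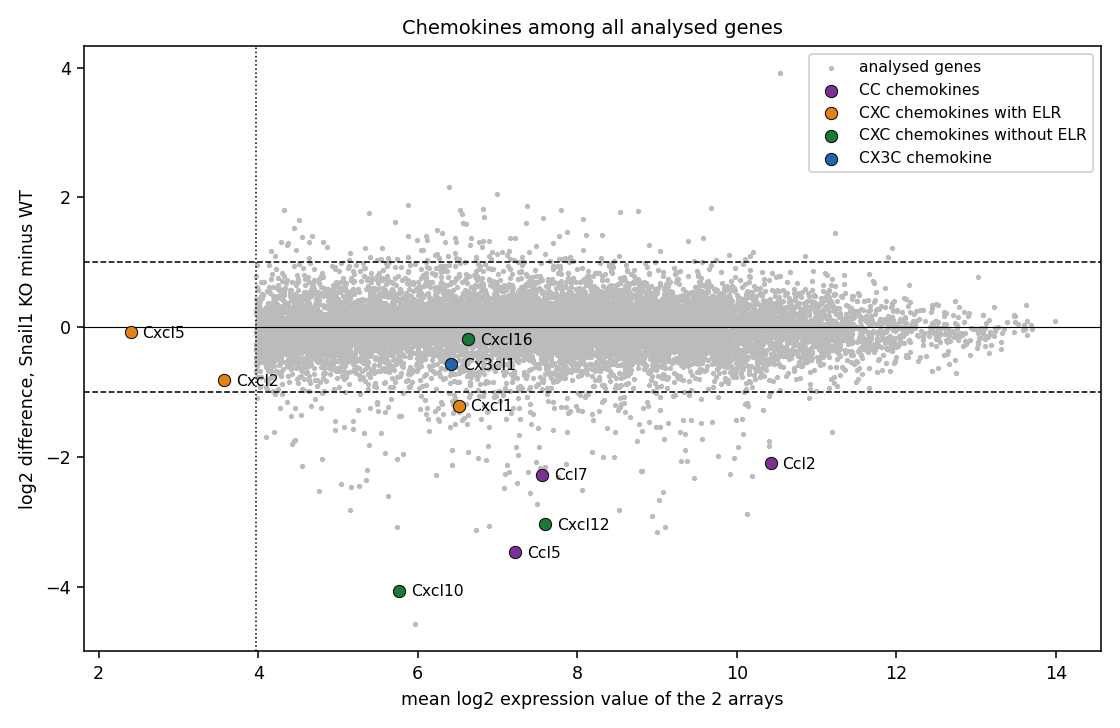
Log2 difference, Snail1 KO minus WT, against the mean log2 expression value of both arrays for the brightest probe set of each of 12874 genes past the filter (grey) and of the 10 chemokines (coloured by class). Dashed lines mark a 2-fold difference and the dotted line the filter level. Cxcl10, Ccl5, Cxcl12, Ccl7, Ccl2 and Cxcl1 lie below the lower dashed line, and Cxcl2 and Cxcl5 lie left of the filter level.

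Chemokine genes sit in clusters on mouse chromosomes, and 8 of the 10 members lie in 5 clusters with other chemokine genes, taken as runs with starts no more than 500 kb apart in the RefSeq order. Cxcl12 and Cxcl16 lie alone. Ccl2 and Ccl7 are next to each other at the end of a cluster on chromosome 11 that goes on with Ccl11, Ccl12, Ccl8 and Ccl1. These 4 neighbours had differences of 0.06, 0.19, -0.17 and -0.19, and all 4 were dim, below the filter level in both groups. Ccl5 opens a further cluster on chromosome 11, in which Ccl9, Ccl6 and Ccl3 were dim and Ccl4, a chemokine of macrophages, was at 5.69 and 5.60. Cxcl9 and Cxcl11, which flank Cxcl10 on chromosome 5 and share its receptor Cxcr3, were at 3.01 and 2.79, and at 3.50 and 3.34. Both were under the filter, and their other probe sets differed by 0.54 for Cxcl9 and -0.04 for Cxcl11. RefSeq lists Cxcl11 in its C57BL/6J assembly as a transcribed pseudogene.

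In the cluster of ELR genes on chromosome 5, Cxcl1 and Cxcl2 lie side by side. Cxcl5 lies at its other end. Between them Pf4, platelet factor 4, was at 6.02 on the WT array and 4.77 on the Snail1 KO array, a difference of -1.25. Ppbp, Cxcl3 and Cxcl15 lay below the filter level. Next to Cx3cl1 on chromosome 8, Ccl17, a ligand of Ccr4, was at 4.56 and 3.79, a difference of -0.76. The Snail1 KO value of Ccl17 lay below the filter level. Of the 16 other chemokine genes in these clusters that have a value, 13 did not pass the filter, which 12874 of all 18193 genes passed. Within 2-fold were 15 of the 16, beside 17822 of all 18193 genes. Pf4 was at least 2-fold lower, beside 1.34% of all genes. Pf4 did not reach 2-fold with the offset of 16 and was not analysed with the filter at the 60th percentile.

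**Figure D3:**
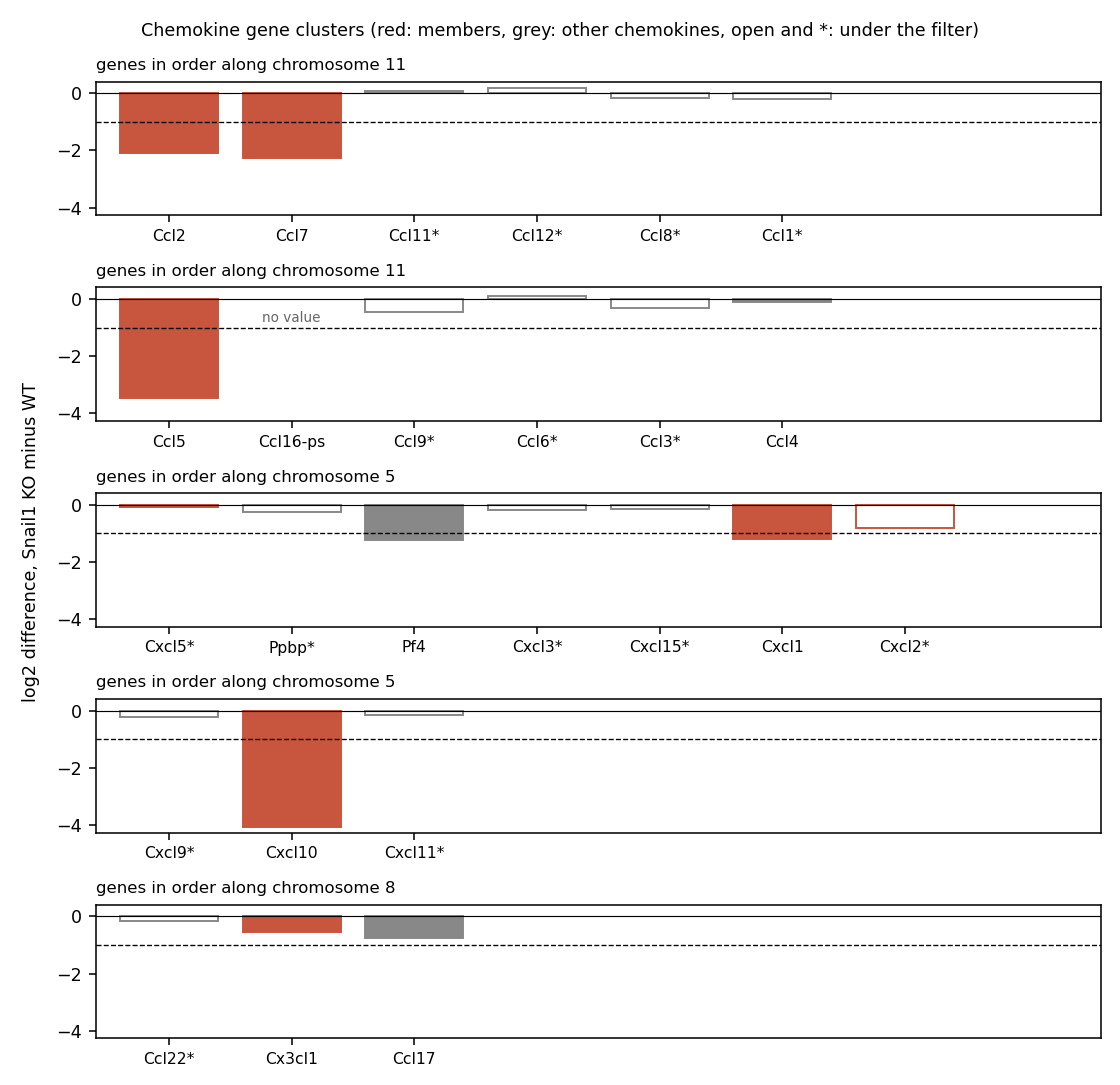
Log2 difference, Snail1 KO minus WT, for chemokine genes in their order along the chromosome, in the 5 clusters that hold a member. Bars are red for members and grey for other chemokines, open with a starred name where the gene was under the filter, and the dashed line marks 2-fold lower. Ccl2 and Ccl7, Ccl5, Cxcl10, Pf4 and Cxcl1 reach past it.

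Over the whole list of 27 other chemokine ligands, 25 had a single-gene probe set, 16 of them below the filter level on both arrays. The 9 that were analysed had a median difference of -0.13, with 8 lower and 1 higher. Of these, 1, Pf4, was past 2-fold, beside 1.84% of the 12874 analysed genes at least 2-fold lower and a median of -0.01 over them. Ccl17 was followed by Cxcl17, a mucosal chemokine, with a difference of -0.70, and by Ccl20, the ligand of Ccr6, at 4.79 and 4.20 (-0.59).

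No chemokine receptor was past 2-fold in either direction, beside 1.84% of analysed genes lower and 0.971% higher. Of 23 receptors in the list, 21 had a probe set and 9 were analysed, with 6 higher, 3 lower and a median of 0.10. Both receptors of Cxcl12 were higher on the Snail1 KO array. Cxcr4, the signalling receptor, was at 6.89 on the WT array and 7.63 on the Snail1 KO array, 1.67-fold higher. Ackr3, the atypical receptor that clears Cxcl12, was at 8.35 and 9.06, 1.64-fold higher.

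Ccrl2, which binds chemerin without signalling, was at 5.66 and 5.01 (-0.65). Ccr2, the receptor of Ccl2 and Ccl7, was at 5.22 and 4.63 where it was brightest, and differed by -0.59 to 0.20 over its 4 probe sets. Cxcr3, the receptor of Cxcl10, was at 5.05 and 5.31. The receptors of the remaining ligands were below the filter level on both arrays. Cxcr2 was at 3.09 and 3.09, Cxcr6, the receptor of Cxcl16, at 2.71 and 2.79, and Cx3cr1 at 3.37 and 3.31. Ccr1 and Ccr3, which bind Ccl5, were at 3.56 and 3.62 and at 2.63 and 2.56.

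In the list of NF-kB and AP-1 genes, 15 of 17 were analysed, with 11 lower, 4 higher and a median of -0.28. Tnfaip3 was the 1 gene past 2-fold, beside 1.84% of analysed genes lower and 0.971% higher. Tnfaip3, an NF-kB target that inhibits the pathway, was at 8.27 on the WT array and 6.03 on the Snail1 KO array (-2.24), but its other probe set differed by -0.21. Fosl1, an AP-1 subunit, differed by -0.93, and the NF-kB subunits Relb and Nfkb2 by -0.75 and -0.64. The other probe sets of Fosl1 and Nfkb2 differed by -0.58 and -0.12. Rela, the main activating subunit, was at 10.17 and 10.37, and the inhibitor Nfkbia at 11.58 and 11.57.

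In the interferon list, 15 of 17 genes were analysed, with 10 lower, 5 higher and a median of -0.02, which was 0.03 when probe sets marked as able to bind several transcripts were left out. Irf7, the factor that amplifies the interferon response, was at 10.36 on the WT array and 7.69 on the Snail1 KO array, 6.34-fold lower, and was the 1 gene of the list past 2-fold, beside 1.84% of analysed genes at least 2-fold lower. It has a single probe set, of the marked kind. Stat2, which carries the interferon signal to the nucleus, was at 8.03 and 7.07 (-0.96), and its other probe set differed by -0.43. Irf1 and Irf9 differed by -0.43 and -0.40, and Irf3, a factor activated by nucleic acid sensing, by 0.08, with 4 probe sets that ran from -0.61 to 0.33.

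Of 17 inducing cytokines and cytokine receptors, 13 were analysed. None was past 2-fold, beside 1.84% of analysed genes lower and 0.971% higher. Their median was -0.09, which was 0.08 with the mean of all probe sets. Il6 was at 4.55 and 3.69 (-0.86). Tnf, a main inducer of endothelial chemokines, was at 4.30 and 3.93 (-0.37). The Snail1 KO values of Il6 and Tnf lay below the filter level. Ifnb1, an interferon gene, was at 3.89 and 3.18, dim in both groups. The receptor genes Tnfrsf1b and Ifnar1 were higher by 0.84 and 0.49 in their brightest probe sets, with another Tnfrsf1b probe set at -0.17. Il6st, a further receptor gene, ran from 0.24 in its brightest probe set to 1.01 over 4 probe sets.

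Genes that hold or cleave chemokines at the cell surface were mostly within 2-fold. In this list 14 of 15 genes were analysed, with 8 lower, 6 higher and a median of -0.08, which was 0.03 with the mean of all probe sets. Sdc4, a heparan sulphate proteoglycan, was at 8.14 and 7.11 (-1.02), the 1 gene of the list past 2-fold, beside 1.84% of analysed genes lower. Its other probe set differed by -0.73, and it was within 2-fold when probe sets were averaged, with the offset of 16 or without marked probe sets. The proteoglycan Gpc1 differed by 0.97 from a WT value of 4.03. Sdc2 and Sdc1, of the same syndecan family as Sdc4, differed by -0.65 and 0.57. Over 4 probe sets each, Sdc2 ran from -0.65 to 0.07 and Sdc1 from 0.03 to 0.57. Adam10 and Adam17, the proteases that release Cx3cl1 and Cxcl16 from the membrane, differed by 0.13 and -0.07 in their brightest probe sets, although other probe sets reached 1.69 for Adam10 and 0.996 for Adam17.

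Among 12 analysed genes of endothelial leukocyte adhesion and inflammation, 8 were lower, 3 of them past 2-fold (beside 1.84% of all analysed genes), and the median was -0.34. When probe sets were averaged 5 were past 2-fold lower, and with the offset of 16 there were 2. Ptgs2 (COX-2) was at 10.64 on the WT array and 7.56 on the Snail1 KO array (-3.08). Csf1, the macrophage growth factor, was at 10.04 and 8.62 (-1.43), and Sele, E-selectin, at 5.10 and 3.73 (-1.37). The Snail1 KO value of Sele lay below the filter level. The 4 probe sets of Csf1 ran from -1.72 to -0.53. Selp, P-selectin, which captures leukocytes from flow, was at 10.32 and 9.46 (-0.85), with other probe sets down to -1.32. Vcam1, a ligand of leukocyte integrins, was at 6.33 and 5.65 (-0.68), with other probe sets down to -2.47.

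**Figure D4:**
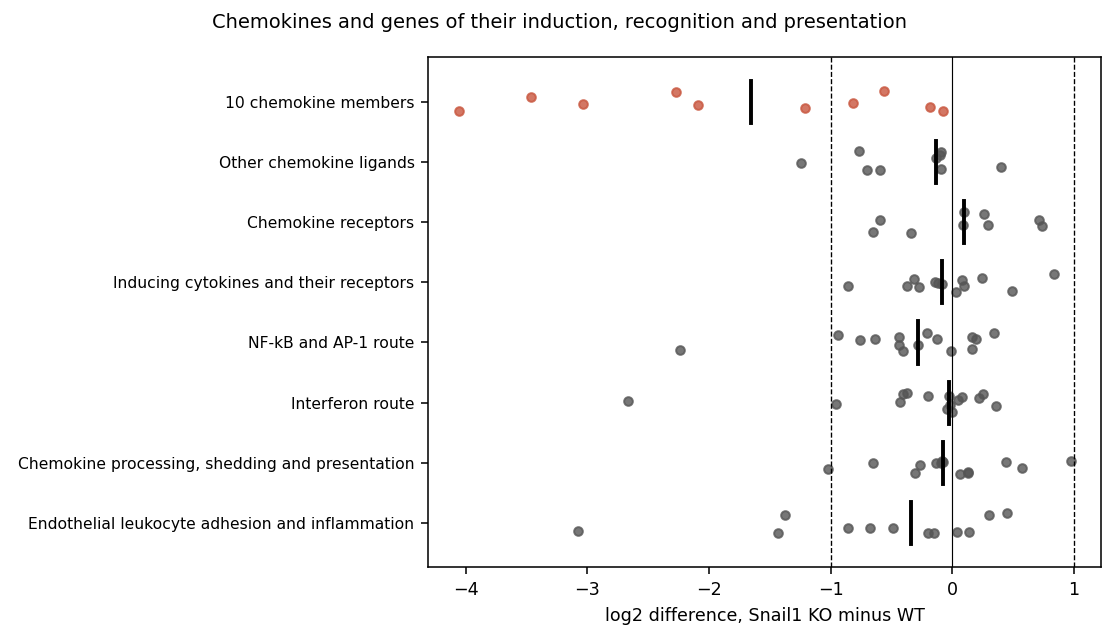
Log2 difference, Snail1 KO minus WT, of the 10 chemokines (red, dim ones included) and of the analysed genes of 7 related lists (grey), 1 point per gene in its brightest probe set, with list medians as black bars and 2-fold differences as dashed lines. The chemokine median is -1.65, and the list medians lie between -0.34 and 0.10.

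Snai1 itself was at 5.33 on the WT array and 3.59 on the Snail1 KO array. Endothelial markers were above the filter level on both arrays, among them Cdh5 (VE-cadherin) at 11.34 and 11.46, and the 14 markers of that list had a median difference of 0.05. Of these, Cd34 was 3.07-fold lower and Cldn5 2.11-fold higher in Snail1 KO, and the other 12 were within 2-fold. Over all 18193 genes, 17822 were within 2-fold. Leukocytes also make Ccl5, Ccl2 and Cxcl16. The 16 leukocyte markers summed to 957 on the WT array and 933 on the Snail1 KO array in linear units. Cd14, the brightest of them on both arrays, weighs most in these sums. Coro1a was lower and Mrc1 higher by at least 2-fold, beside 1.34% and 0.698% of all genes. The other 14 were within 2-fold. Another Coro1a probe set differed by 0.23. The defining marker Ptprc (CD45) was below the filter level on both, as were Itgam, Cd52 and Tyrobp. However, 10 of the 16 passed the filter. Among these, Cd14 was at 8.43 on the WT array and 8.60 on the Snail1 KO array. Cd68 was at 7.27 and 7.20, and Lyz2 at 6.43 and 6.34. Stromal and mural cells are a known source of Cxcl12. The 9 smooth muscle and pericyte markers summed to 3569 and 965, with Tagln, Acta2 and Myl9 past 2-fold lower, beside 1.34% of all genes. Acta2 and Tagln, the brightest of these markers on both arrays, weigh most in the sums. Another Acta2 probe set differed by 0.20. Cnn1 and Myh11, also smooth muscle markers, differed by -0.81 and -0.91, with Myh11 under the filter. The other Myh11 probe set differed by -0.09. The pericyte markers Pdgfrb, Rgs5 and Cspg4 differed by -0.40, -0.06 and 0.10, and Des by 0.01. The part of smooth muscle cells in the chemokine values was not tested. The 9 fibroblast markers summed to 4168 and 4279. Thy1, the brightest of them at 11.43 and 11.37, weighs most in these sums. Col3a1 was at 7.33 and 6.33, a difference of -0.998, while its other probe set differed by 0.22. In these bulk cultures fewer cells of a type and less RNA per cell cannot be told apart. Of the 5 platelet markers, which include Pf4, Itga2b and Gp9 differed by -0.12 and -0.14.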

How the data were processed

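The 2 samples, 1 array each, were grouped by their titles. The authors deposited 1 log2 value per probe set and array, which the submitters' processing notes say came from RMA and affy (versions not given in the sources used here). RMA makes the distributions of the arrays nearly equal (sorted values differed by at most 0.133), so a change of total mRNA cannot be seen, and it compresses differences of dim probe sets. No detection calls or probe sequences were used.

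Of 45101 probe sets, 64 were controls, 34945 had 1 gene symbol in GEO's platform annotation, 932 had several and 9160 had none here. The log2 difference was Snail1 KO minus WT. A gene was represented by its brightest probe set and analysed if its mean exceeded the 40th percentile (3.97), which left 12874 genes. The sizes counted were at least 2-fold. Python 3.11.15, numpy 2.4.6 and pandas 2.3.3 were used, and counting was tested on simulated data. There was no replicate, so no p-value, and 2 arrays limit the precision.

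The members, lists, motifs and markers were chosen with earlier results of these data known. All members were named, with the up to 4 genes of largest absolute difference, and any past 2-fold, in each of 7 lists. Receptors of members, cluster neighbours, markers and other genes named with their roles (Rela, Nfkbia, Irf3, Ifnb1, Il6st, Adam10, Adam17, Vcam1) were chosen after their values were seen. Promoters are from RefSeq (GRCm38.p6), matched by symbol for 5 of 10 members. Alternatives were the mean of all probe sets, no filter or one at the 60th percentile, median and trend centring (a running median over 501 genes), an offset of 16, leaving out probe sets marked _x_at, _s_at or _a_at, and sizes of 1.5-fold and 3-fold.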

Additional observations from a re-analysis of the deposited data

Results flagged for a closer look

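Cre has 4 control probe sets on the array. They enter no comparison of genes and gave far more signal in the Snail1 KO sample, with log2 differences of 8.04 for AFFX-CreX-3_at, 9.52 for AFFX-CreX-5_at, 9.44 for AFFX-r2-P1-cre-3_at and 10.17 for AFFX-r2-P1-cre-5_at. The WT values of these probe sets, 2.69 to 3.83, lay below the filter level, so the sizes are not exact.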

How the results depend on the processing

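No array could be left out and no paired analysis was possible because each group holds 1 array. Under the 9 alternatives 5 to 7 members were past the size used, 7 at 1.5-fold and 5 at 3-fold, and none was higher past it. Of 70 recomputed member differences 69 stayed below 0, the exception being Cxcl5 at 0.01 with trend centring. Without probe sets that can bind several transcripts the members' median was -2.16. With the mean of all probe sets 77 analysed genes were at least 2-fold higher in place of 125, and with an offset of 16 there were 71. The 7 related lists together had 7 genes past 2-fold lower and 0 higher, against 4 lower with the offset and 1 higher, among the surface genes, with trend centring. By construction, 783 analysed genes were lower and 652 higher at 1.5-fold, and 90 and 23 at 3-fold, and in the related lists 20 were lower and 4 higher at 1.5-fold and 3 lower at 3-fold. A member's difference was taken as moved past 0.418, the SD of the difference between 2 probe sets of a gene over 16489 probe sets. Where the offset or another probe set changed a value, the cause was not tested.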
